A study of Mus musculus with 2 samples.

Results

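Collagens are the fibre- and network-forming proteins of the extracellular matrix. The genes described here are those annotated as protein-coding in mouse whose symbol is Col, a type number, the letter a and a chain number (Col1a1 is the alpha 1 chain of type I collagen). This gave 44 genes of the 43346 gene rows in the tables, and all 44 were found in both libraries' tables. They were grouped by collagen type into 11 fibrillar genes, 8 basement membrane genes and 25 of other types.

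The study sequenced polyadenylated RNA from duodenum tissue (the part of the gut next to the stomach) of adult C57BL/6J mice aged 8 weeks. There was 1 group with 2 libraries, called replicate 1 and replicate 2 after the replicate numbers in the labels, with no treatment and no control group. The tissue was pooled from littermates of both sexes, and the RNA was depleted of ribosomal RNA and selected for fragments above 200 nucleotides. The libraries share a donor entry and differ in their tissue-sample entry, and separate animals are not stated, so any spread between these 2 samples may be technical.

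As background, a collagen molecule is made of 3 chains wound around each other into a triple helix. Each chain repeats the triplet Gly-X-Y, in which glycine, the smallest amino acid, faces the crowded centre of the helix and X and Y are often proline and hydroxyproline. Fibrillar collagens have a long unbroken helix and line up into the fibres of connective tissue, while type IV chains have a helix broken at many points and form the flexible sheet of basement membranes. In the intestine, fibroblasts, smooth muscle cells, endothelium and epithelium are known sources of collagens, which form the lamina propria, the submucosa, the muscle layers and the basement membranes under the epithelium and around vessels.

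The Gly-X-Y repeat can be read directly in the coding exons of the chains that led the duodenal tables. The sequences below are whole exons in mm10 from the GENCODE annotation, in the sense of the gene, and capitals mark the glycine codons that open each triplet. For the fibrillar chains the first 54-base exon of the helix is shown. It lies at chr11:94939904-94939957 on the plus strand for Col1a1, at chr6:4515481-4515534 on the plus strand for Col1a2 and at chr1:45325360-45325413 on the plus strand for Col3a1, and each of these exons holds 6 complete triplets.
Col1a1: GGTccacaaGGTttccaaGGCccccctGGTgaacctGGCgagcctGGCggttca
Col1a2: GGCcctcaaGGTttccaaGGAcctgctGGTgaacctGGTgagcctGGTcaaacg
Col3a1: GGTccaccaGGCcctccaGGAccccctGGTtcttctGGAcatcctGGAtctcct

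For type IV, many breaks of the repeat set the chains apart from the fibrillar ones. For each chain the first exon under 200 bases with a break of at most 10 codons between stretches of the repeat is shown. The Col4a1 exon at chr8:11267597-11267656 on the minus strand carries 9 codons of the repeat, then 5 codons outside it, then the repeat again. The Col4a2 exon at chr8:11406813-11406854 on the plus strand carries 6 codons, then a break of 2 codons.
Col4a1: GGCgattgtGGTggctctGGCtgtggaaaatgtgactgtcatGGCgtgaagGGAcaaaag
Col4a2: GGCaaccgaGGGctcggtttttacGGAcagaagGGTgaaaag

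For type VI, whose short helix joins globular domains into beaded filaments, the first helical exon of the chains' commonest length is shown. These exons of 63 bases and 7 triplets lie at chr10:76717795-76717857 for Col6a1 and at chr10:76610160-76610222 for Col6a2, both on the minus strand.
Col6a1: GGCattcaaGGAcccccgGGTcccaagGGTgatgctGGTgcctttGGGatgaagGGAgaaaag
Col6a2: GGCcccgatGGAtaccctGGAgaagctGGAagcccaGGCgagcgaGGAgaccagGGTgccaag

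Over the longest annotated coding sequence of each gene, the longest uninterrupted Gly-X-Y run had a median of 338 triplets in the fibrillar genes (216 to 344), 41 in the basement membrane genes (30 to 66) and 52 in the other types (23 to 113). It was 338 triplets in Col1a1, 339 in Col1a2 and 344 in Col3a1. In Col4a1 it was 40 triplets. Between its first and last run Col4a1 had 22 gaps of any length, of which 21 were of at most 10 codons. Col1a1, Col1a2 and Col3a1 each had 1 gap, longer than 10 codons and outside the longest run. That longest run held 338 of 355 triplets in runs in Col1a1, 339 of 353 in Col1a2 and 344 of 357 in Col3a1. A run was counted from 3 triplets upwards.

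The exon structure followed the triplet. Of 1098 coding exons that lay wholly inside the repeat, 96.5% had a length that was a multiple of 9 bases, the length of 1 triplet. In the fibrillar genes this held for 508 of 510 exons (99.6%), and 302 of them (59.2%) were exactly 54 bases long. In the basement membrane genes it held for 127 of 149 exons (85.2%), with 14 of 54 bases (9.40%), and in the other types for 425 of 439 (96.8%), with 137 of 54 bases (31.2%). These are properties of the annotation and not of the RNA measured.

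**Figure D1:**
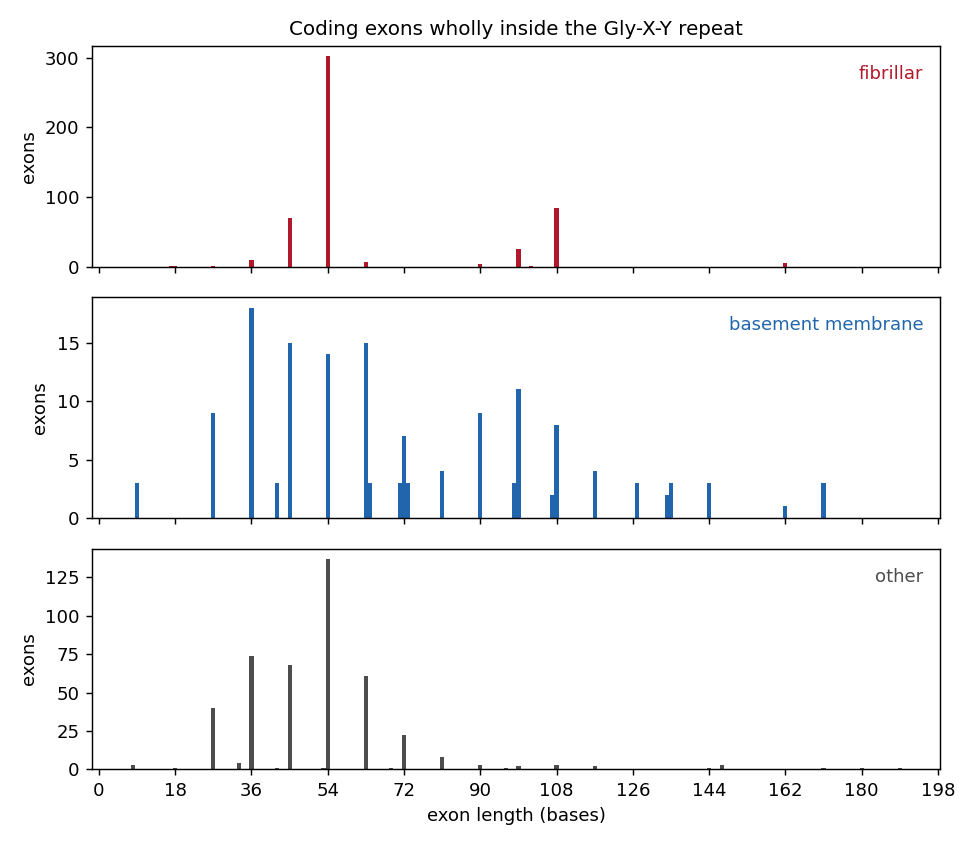
Number of coding exons lying wholly inside the Gly-X-Y repeat (vertical axis, a separate scale for each class) by exon length in bases, for the longest coding sequence of each collagen gene; exons over 200 bases are not drawn. The fibrillar genes pile up at 54 bases, with 302 of 510 exons, while the basement membrane genes spread over many lengths, with 14 of 149 at 54 bases.

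Collagen transcripts held a small part of the duodenal RNA. Levels between genes are given in TPM, a share of all transcripts that corrects for transcript length. The 44 genes summed to 445 TPM in replicate 1 and 339 TPM in replicate 2 (392 ± 75.3, SD, n = 2), or 0.0454% and 0.0346% of the TPM of all genes. The sum was carried by few members: the 8 genes with the highest mean TPM made up 74.0% of collagen TPM in replicate 1 and 77.3% in replicate 2. Of the 44 genes, 25 had a mean TPM of at least 1 and 2 had no read in either library.

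By TPM, type VI chains held the highest summed level, above the fibrillar and the basement membrane genes in both libraries. In counts, which are not corrected for length, type VI (27583 and 22885) and the basement membrane genes (28273 and 22024) lay near each other. The other types summed to 198 and 164 TPM (181 ± 23.9), of which the 6 type VI genes alone held 152 and 136 TPM. The basement membrane genes summed to 126 and 102 TPM (114 ± 16.7). The fibrillar genes summed to 122 and 73.3 TPM (97.8 ± 34.6), so that the fibrillar and basement membrane sums were near each other in replicate 1 and apart in replicate 2. With 2 libraries no test of the order of these sums was made.

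**Figure D2:**
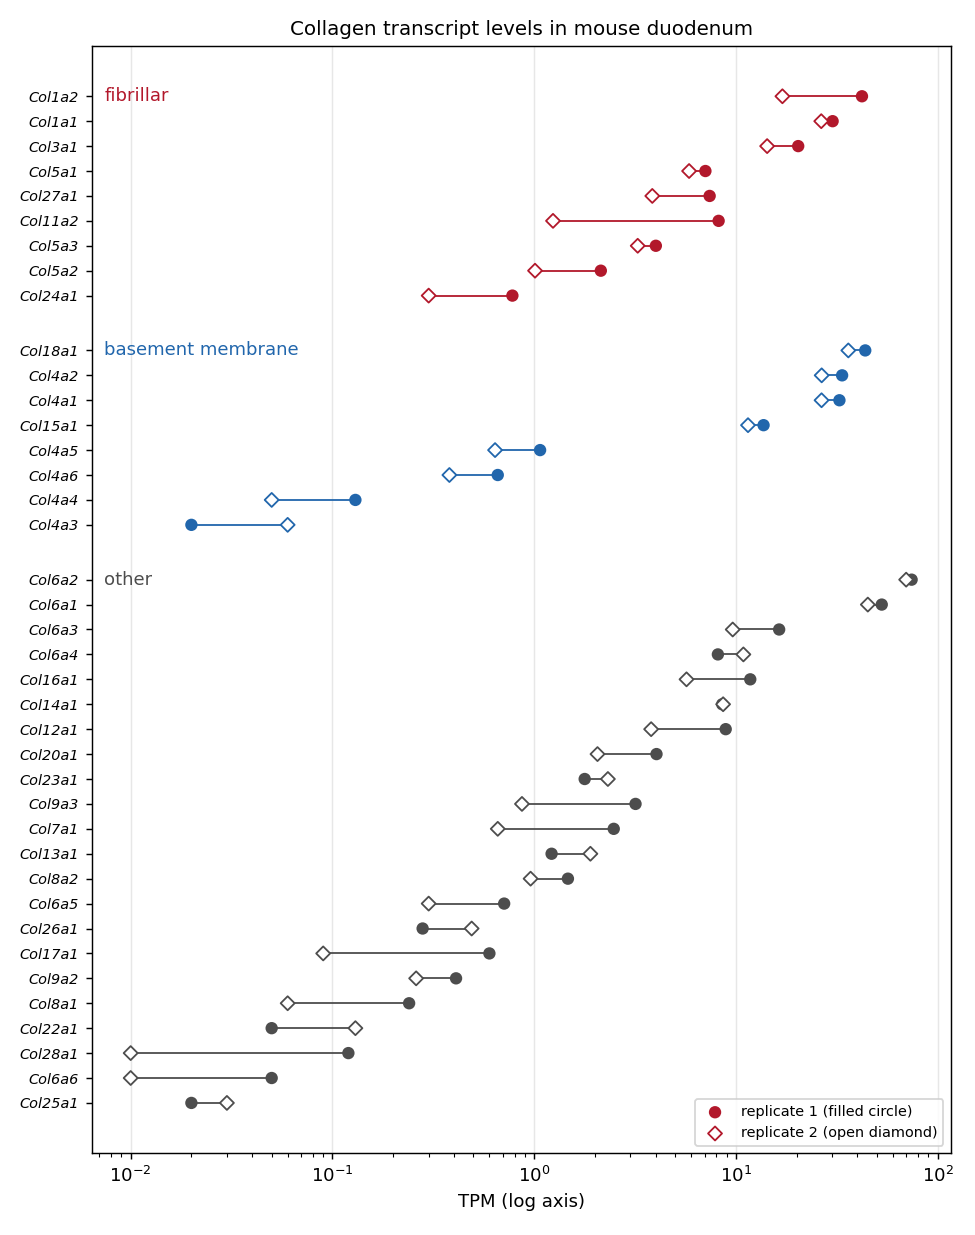
TPM (log axis) of every collagen gene with a value above 0 in both libraries, filled circles for replicate 1 and open diamonds for replicate 2, ordered by mean TPM within the fibrillar, basement membrane and other classes. The 2 libraries lie close together for Col6a2 (74.3 and 69.8 TPM) and Col1a1 (30.1 and 26.5 TPM) and far apart for Col11a2 (8.21 and 1.24 TPM).

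Type VI collagen, a filament that surrounds cells and links them to the fibrous matrix, gave the highest single chains. Col6a2 (chromosome 10, 76595762 to 76623630, minus strand, mm10) was at 74.3 TPM in replicate 1 and 69.8 in replicate 2, which ranked it 1735 among 21474 protein-coding genes. Col6a1, encoded on the same strand at 76708792 to 76726168, was at 52.8 and 45.1 TPM, and Col6a3, the largest of the classical type VI chains, was at 16.4 and 9.64 TPM. Col6a4, one of the chains that can take the place of the alpha 3 chain, was at 8.14 and 10.9 TPM. The remaining alpha 3-like chains were lower, with Col6a5 at 0.71 and 0.30 TPM and Col6a6 at 0.05 and 0.01 TPM.

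The basement membrane class was led by Col18a1, Col4a2 and Col4a1. Col18a1 (chromosome 10, 77052178 to 77166548, minus strand), whose cleaved C-terminal end is endostatin, was at 43.8 TPM in replicate 1 and 36.1 in replicate 2. Of this, 95.4% and 91.3% was assigned to the isoform Col18a1-202, which starts at base 77166548 and codes for 1315 codons, against 1774 in the longest isoform. Col4a2 and Col4a1, the chains of the ubiquitous type IV network, were at 33.6 and 26.6 TPM and at 32.6 and 26.6 TPM. Col15a1, a relative of Col18a1, was at 13.7 and 11.5 TPM. The chains of restricted type IV networks were far lower: Col4a5 was at 1.07 and 0.64 TPM, Col4a6 at 0.66 and 0.38, Col4a4 at 0.13 and 0.05 and Col4a3 at 0.02 and 0.06.

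The fibrillar class was led by type I and type III, the bulk collagens of connective tissue. Col1a2 (chromosome 6, 4504814 to 4541544, plus strand) was at 42.1 TPM in replicate 1 and 17 in replicate 2, and Col1a1 (chromosome 11, 94936224 to 94953042, plus strand) at 30.1 and 26.5 TPM. Col3a1 (chromosome 1, 45311538 to 45349706, plus strand) was at 20.4 and 14.3 TPM. Type V chains, which start and thin collagen fibrils, were at 7.06 and 5.86 TPM for Col5a1, 4.01 and 3.26 for Col5a3 and 2.14 and 1.01 for Col5a2. Col27a1 was at 7.41 and 3.85 TPM and Col11a2 at 8.21 and 1.24 TPM. Col24a1 was at 0.78 and 0.30 TPM.

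Among the collagens that sit on the surface of fibrils (FACIT), Col16a1 was at 11.8 and 5.69 TPM, Col14a1 at 8.55 and 8.64, Col12a1 at 8.90 and 3.80, Col20a1 at 4.04 and 2.06 and Col9a3 at 3.18 and 0.87. Col7a1, which forms the fibrils that anchor a basement membrane to the tissue beneath, was at 2.48 and 0.66 TPM. The membrane-spanning collagens Col23a1 and Col13a1 were at 1.78 and 2.32 TPM and at 1.22 and 1.90 TPM. Col8a2, a chain of short network-forming molecules, was at 1.47 and 0.96 TPM. The members not named above, with a mean TPM under 1, were Col26a1, Col17a1, Col9a2, Col8a1, Col22a1, Col28a1, Col25a1, Col19a1, Col2a1, Col11a1, Col9a1 and Col10a1, between 0 and 0.60 TPM in either library.

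The collagens that define cartilage were at or near 0. Col2a1, the main fibrillar collagen of cartilage, had 1 expected count in replicate 1 and 0 in replicate 2, and Col11a1 had 0 and 2. Col9a1 and Col10a1 had 0 counts throughout, and a count of 0 allows up to 0.0678 CPM (counts scaled to the library's gene total) in replicate 1 and 0.0671 in replicate 2. Of the cartilage markers Acan, Comp, Matn1, Hapln1 and Matn3, Matn1 and Matn3 were also at 0 and the list summed to 0.18 and 0.10 TPM. Their partner chains in cartilage were nevertheless read, Col11a2 with 1405 and 189 counts, Col9a3 with 94 and 17 and Col9a2 with 28 and 28.

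Chains of 1 trimer were then set side by side within each library. Type IV contains 2 alpha 1 chains and 1 alpha 2 chain, and the TPM ratio of Col4a1 to Col4a2 was 0.970 in replicate 1 and 0.998 in replicate 2 (0.984 ± 0.0202, SD, n = 2). These genes lie head to head on chromosome 8, their starts 21 bases apart and their annotated ends overlapping by 22 bases on opposite strands. The starts of Col4a3 and Col4a4 lie 72 bases apart and those of Col4a5 and Col4a6 1309 bases apart. The ratio of Col4a5 to Col4a6 was 1.62 and 1.68 by TPM, but 1.32 and 1.10 by counts per base of the full exon union, which turned the order of the libraries. The counts of Col4a3 (7 and 21) and Col4a4 (51 and 19) ran in opposite directions between the libraries.

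Type I also contains 2 alpha 1 chains and 1 alpha 2 chain. The TPM ratio of Col1a1 to Col1a2 was 0.715 in replicate 1 and 1.56 in replicate 2, on either side of 1. With the long isoforms alone, those of at least 50% of the longest transcript's length, it was 1.12 and 1.72. With counts per base of the full exon union it was 2.21 and 3.57, so the value depended on which transcripts were counted. In all 3 forms it was lower in replicate 1.

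In type V, Col5a1 stood above Col5a2 by 3.30 and 5.80 times. In type VI, Col6a1 stood at 0.711 and 0.646 of Col6a2 by TPM, but at 1.38 and 1.26 by counts per base of the exon union, so the order of these chains turned with the length used. Col6a1 stood above Col6a3 by 3.22 and 4.67 times. The ratio of Col3a1 to Col1a1, which compares type III with type I, was 0.675 and 0.539 by TPM and 0.422 and 0.341 by exon union. These ratios are of RNA and carry no test.

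**Figure D3:**
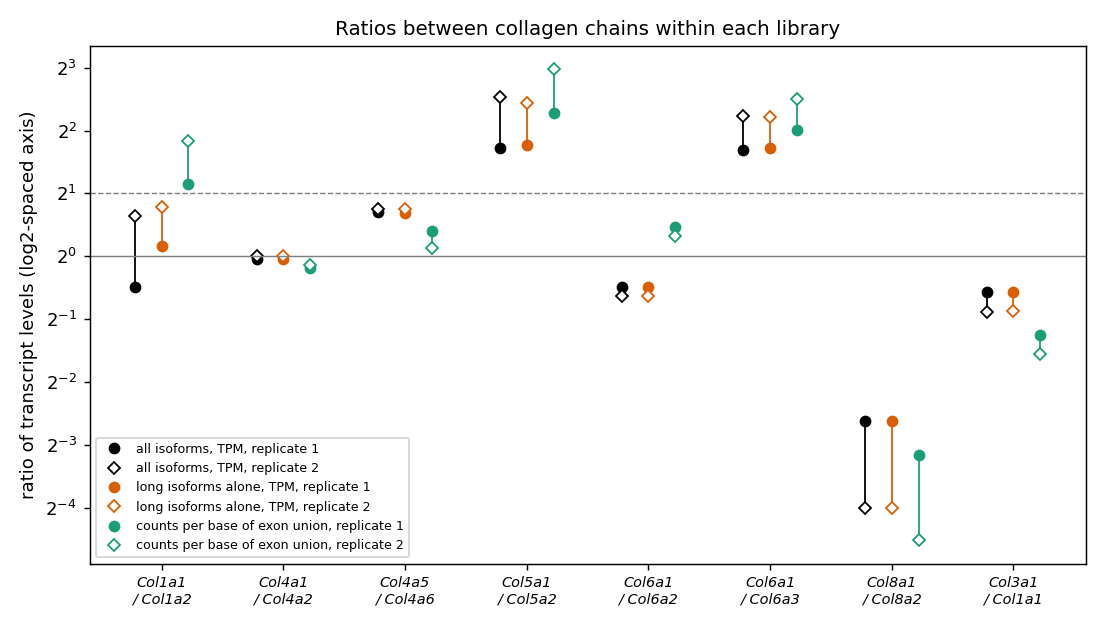
Ratio of transcript levels of collagen chains within each library (log2-spaced axis), filled circles for replicate 1 and open diamonds for replicate 2, by TPM of all isoforms, TPM of long isoforms alone and counts per base of the exon union; the solid line marks 1 and the dashed line 2. Col4a1 over Col4a2 stays near 1 (0.970 and 0.998 by TPM), while Col1a1 over Col1a2 runs from 0.715 to 3.57 over the libraries and measures.

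The transcript tables split each gene's TPM among its isoforms, and for several members most of it rested on short transcripts. Of 25 members with at least 100 counts in both libraries, 10 had 2 or more isoforms at 10% or more of the gene's TPM in either library. For Col1a2, an 850-base transcript (Col1a2-205) from the 5′ part of the gene took 36.0% of the gene's TPM in replicate 1 but 9.18% in replicate 2, on 410 and 39.4 expected counts. The full-length Col1a2-201 of 5347 bases held 63.5% and 89.7%, on 5651 and 3101 expected counts. Thus 15.2 of the 42.1 TPM of Col1a2 in replicate 1 came from the short transcript.

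Several FACIT members had most of their TPM on transcripts much shorter than the full gene. The long isoforms held 16.4% and 11.8% of the TPM of Col12a1, where the 1784-base Col12a1-204 held 63.1% and 79.1%. They held 16.4% and 20.9% for Col14a1, 33.1% and 32.2% for Col16a1 and 11.9% and 0% for Col9a3. For Col9a3 a 644-base transcript with a retained intron held 62.4% and 33.5%. In Col16a1 an 833-base non-coding transcript at the 3′ end held 57.1% and 48.2%. Counted by long isoforms alone, 22 members had a mean TPM of at least 1, against 25 with all isoforms.

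In some genes near-identical long isoforms exchanged places between the libraries. Col15a1-201 held 0% in replicate 1 and 41.0% in replicate 2, while Col15a1-202 (5172 bases, against 5102) held 62.0% and 15.8%. For Col7a1, the 9250-base Col7a1-202 held 63.4% and 0%, and the 9198-base Col7a1-201 held 0.20% and 52.1%. By posterior mean estimates, Col15a1-201 held 3.24% and 33.3% and Col15a1-202 55.0% and 16.1%. On that scale Col7a1-202 held 39.55% and 8.79%, but Col7a1-201 held 10.3% and 10.7%, so the share of Col7a1-201 hardly differed. Reads shared by such isoforms were split by the authors' quantifier, and how much of the exchange is due to that was not tested.

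The libraries were then compared gene by gene. Expected counts were scaled with TMM, and each gene's counts were compared with a two-sided exact binomial test. A gene was called where the Benjamini-Hochberg adjusted p over 15921 genes was under 0.05 and the scaled ratio at least 2-fold. This test knows counting noise only, and its p-values hold no spread between samples. Of the 38 collagen genes that averaged 10 counts or more, 12 were called higher in replicate 1 (31.6%), against 14.6% of all genes tested, and 1 was called higher in replicate 2 (2.63%), against 11.5%. The other 25 were not called, and 6 members had too few counts to be tested. Among the 34 members with at least 10 counts in each library, 9 were called higher in replicate 1 (26.5%), against 11.6% of all genes filtered in this way, and 0 in replicate 2, against 10.7%.

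A test that allows for spread between the libraries was also run. In the edgeR exact test with a common biological coefficient of variation of 0.529, 0 members were called after adjustment, against 1.37% of all genes, and 1 member, Col11a2, had an unadjusted p under 0.05. The coefficient was taken from the same 2 libraries that the test then compares, so a gene that did not pass is not shown to be alike in them. With 1 group of 2 libraries, the calls below describe these libraries and not duodenal tissue in general. In bulk tissue, fewer cells of a type and less RNA per cell cannot be told apart.

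The ratio lay above 1, toward replicate 1, for 31 of 38 members (81.6%), against 52.1% of all genes. The median log2 ratio of replicate 1 over replicate 2 was 0.54 for the members and 0.04 for all genes. On other scales both medians moved together: with ERCC spike-in totals as library sizes they were 0.78 and 0.29, with 33 members above 1 and 5 below. Col6a2 and Col9a2 were the members that changed side with ERCC totals, and Col1a1 changed side with DESeq2 size factors (log2 ratio -0.01).

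Of the 8 members with the highest mean TPM, 6 had scaled ratios near 1, and Col1a2 and Col3a1 lay further from it. Col6a2, with 11595 and 10460 counts, had a scaled ratio of 0.950 (95% interval 0.925 to 0.976), but 1.06 by TPM, so its direction turned with the scale. Col6a1 had 1.05 (1.01 to 1.08), Col18a1 1.08 (1.04 to 1.11), Col4a1 1.09 (1.06 to 1.13) and Col4a2 1.12 (1.09 to 1.16). Col1a1, with 7082 and 5940 counts, had a ratio of 1.02 (0.987 to 1.06) and an adjusted p of 0.259 in the exact binomial test with TMM scaling. With ERCC totals as library sizes its log2 ratio was 0.27 and the adjusted p of the same exact test 1.39e-26, so whether Col1a1 differed beyond counting noise depended on the scale.

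Col1a2 and Col3a1 did not move with Col1a1 in equal measure. Col1a2 had 6076 counts against 3149 in replicate 2, a scaled ratio of 1.65 (1.58 to 1.73), and with long isoforms alone 1.56. By TPM the ratio was 2.48. Col3a1 had a ratio of 1.27 (1.21 to 1.33) and Col6a3 of 1.47 (1.41 to 1.53). All 3 differed beyond counting noise and stayed under the 2-fold limit, Col1a2 by scaled counts only.

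The 5 called members with a mean TPM of at least 1 were all higher in replicate 1. Col11a2 (chromosome 17, 34039437 to 34066685, plus strand), a fibrillar chain best known from cartilage, had 1405 counts against 189 in replicate 2. Its scaled ratio was 6.37 (5.47 to 7.46), with an adjusted p of 4.03e-190 in the exact binomial test and of 0.581 in the edgeR exact test. Long isoforms held 58.8% and 59.7% of its TPM and gave a ratio of 5.83. Col9a3, another chain known from cartilage, had a ratio of 4.74 (2.81 to 8.48) on 94 and 17 counts, of which the long isoforms held 41.1 and 0.

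Col7a1, the anchoring fibril chain, had 603 and 128 counts and a ratio of 4.04 (3.33 to 4.93). Col12a1, which decorates type I fibrils, had 1216 and 431 counts and a ratio of 2.42 (2.16 to 2.71). Col27a1 had 1455 and 615 counts and a ratio of 2.03 (1.84 to 2.23), at the edge of the 2-fold limit, and it was not called with DESeq2 size factors or by TPM. Just under the limit lay Col16a1 with 1.91 (1.70 to 2.16) and Col5a2 with 1.88 (1.61 to 2.19).

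Among the 13 tested members with a mean TPM under 1, 7 were called higher in replicate 1, beside 5 of the 25 with at least 1. Of all genes tested, 14.6% were called higher in replicate 1, and their share at this low level is not given here. Over all genes the log2 ratio fell with mean count (Spearman correlation -0.263). Col24a1, Col8a1, Col4a4 and Col6a5 had ratios of 3.58, 3.50, 2.30 and 2.10. Col26a1, Col28a1 and Col6a6 were called on 29 and 6, 19 and 2, and 16 and 4 counts. For Col28a1 the ratio of 8.14 had an interval of 1.96 to 72.1. Col26a1 had a ratio of 4.14 (1.69 to 12.2) in counts, but lower TPM in replicate 1 (0.28) than in replicate 2 (0.49), so its direction was not the same on the 2 scales. Col4a3, on 7 and 21 counts, was the only member called higher in replicate 2, with a ratio of 0.286 (0.103 to 0.698), and it reached the count minimum only through that library.

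Of the tested members, 4 had under 10 counts in 1 library and passed the count minimum through the other, and all 4 were called (Col26a1, Col28a1, Col6a6 and Col4a3). Such genes have to differ to be tested, so these 4 calls support nothing. Members with ratios under 1 that were not called were Col13a1 (0.590, 0.472 to 0.736), Col6a4 (0.644, 0.603 to 0.688), Col23a1 (0.682, 0.597 to 0.780), Col14a1 (0.820, 0.748 to 0.899) and Col9a2 (0.857, 0.489 to 1.502), beside Col6a2. Both Col13a1 and Col23a1 span the cell membrane, and both lay toward replicate 2. The third tested membrane-spanning chain, Col17a1, had 33 and 20 counts and a ratio of 1.41 (0.788 to 2.60).

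**Figure D4:**
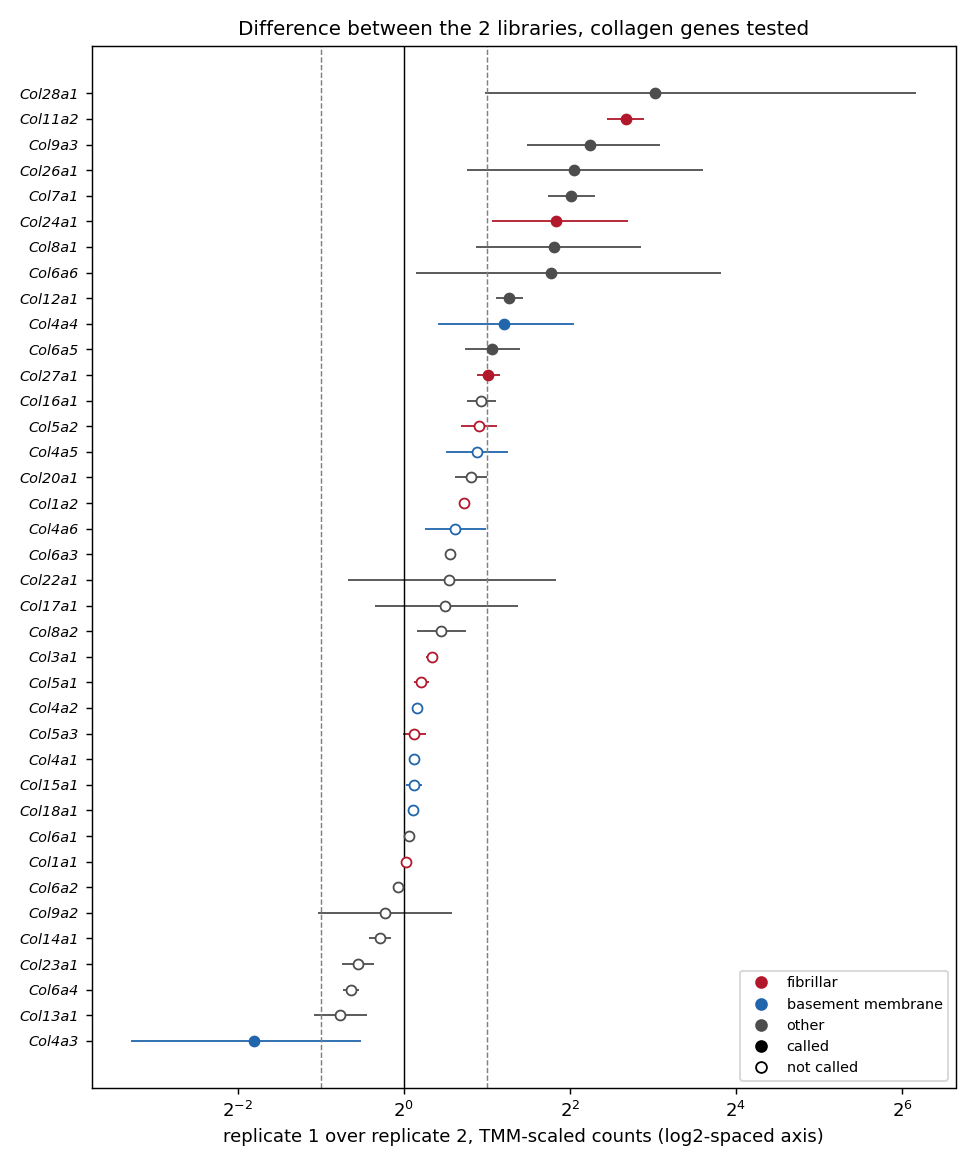
Ratio of replicate 1 over replicate 2 in TMM-scaled counts (log2-spaced axis) with its exact 95% interval for the 38 collagen genes tested, coloured by class; filled points were called, open points were not, and dashed lines mark 2-fold. Called members run from Col27a1 at 2.03 to Col28a1 at 8.14, with Col4a3 alone on the other side at 0.286, and the most abundant chains other than Col1a2 (1.65) and Col3a1 (1.27) lie near 1.

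By class, 3 of 9 tested fibrillar genes were called higher in replicate 1 (Col11a2, Col24a1 and Col27a1; 33.3%, against 14.6% of all genes), with a median log2 ratio of 0.73, against 0.04 for all genes. Of 8 basement membrane genes, Col4a4 was called higher in replicate 1 and Col4a3 in replicate 2, with a median log2 ratio of 0.14. Each call is 12.5% of the class, beside 14.6% and 11.5% of all genes, but rests on 1 gene. Col4a3 reached the count minimum only through replicate 2, so its call supports nothing. Of 21 tested genes of other types, 8 were called higher in replicate 1 (38.1%), with a median of 0.56, and 3 of these 8 were the low-count genes Col26a1, Col28a1 and Col6a6. The difference between the classes was not tested.

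The genes that act on collagen after its chains are made were read in the same way, by lists drawn up for this purpose. Each list's share of called genes is to be read against the 14.6% of all genes called higher in replicate 1, the 11.5% called higher in replicate 2 and the median log2 ratio of 0.04. Of 18 tested genes for folding, modification and export, 2 were called, both higher in replicate 1 (11.1%, below the 14.6% of all genes), and the median log2 ratio was 0.11. The list was led by P4hb, a subunit of prolyl 4-hydroxylase and a disulfide isomerase of wide use, at 412 and 683 TPM, by Ppib, a prolyl isomerase, at 98.4 and 90.2, and by Mia3, which helps load procollagen for export, at 67.2 and 57.2. Creb3l1, a transcription factor of secretory cells that is known to act on Col1a1, was at 49.5 and 15.7 TPM (2.83-fold), and Plod2, a lysyl hydroxylase, at 1.63 and 0.45 (3.05-fold).

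Of 13 tested genes for trimming and cross-linking, 1 was higher in each library (7.69% each way, below the 14.6% and 11.5% of all genes), with a median of 0.48. Pcolce, an enhancer of C-propeptide removal, was at 48.5 and 29.5 TPM, the proteinase Bmp1 at 19.9 and 28.04, and the oxidase Loxl1 at 21.2 and 13.5. Lox, which starts the cross-links, was at 4.62 and 1.23 TPM (3.23-fold higher in replicate 1), and the proteinase Tll1 at 0.07 and 0.13 TPM (higher in replicate 2).

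Of 11 tested genes for breakdown and its inhibition, 2 were higher in each library (18.2% each way, against 14.6% and 11.5% of all genes), with a median of 0.21. The membrane-bound collagenase Mmp14 was at 76.05 and 53.4 TPM, Timp2 at 29.9 and 29.6 and the gelatinase Mmp2 at 30.01 and 24.97. The inhibitors Timp1 (3.66 and 0.63 TPM) and Timp3 (30.7 and 7.90 TPM) were 5.36-fold and 2.63-fold higher in replicate 1. Mmp9 (7.60 and 20.9 TPM) and Timp4 (0.36 and 2.14 TPM) were higher in replicate 2.

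Of 8 tested collagen receptors, 3 were called, all higher in replicate 1 (37.5%, against 14.6% of all genes), and the median was 0.68. Ddr1, a receptor tyrosine kinase of epithelia, was at 61.4 and 68.1 TPM, and the integrin chain Itgb1 at 9.71 and 9.44. Ddr2, its relative in mesenchymal cells, was at 3.56 and 1.33 TPM (2.66-fold). The collagen-binding integrin chains Itga1 and Itga2 were at 2.44 and 0.51 TPM (4.28-fold) and at 0.43 and 0.10 TPM (3.80-fold).

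Of 11 proteins that associate with fibrils, 3 were called, all higher in replicate 1 (27.3%, against 14.6% of all genes), and the median was 0.54. Sparc was at 369 and 252 TPM and the proteoglycan Bgn at 77.9 and 83.7. Fibronectin (Fn1) was at 76.1 and 32.3 TPM (2.52-fold), Dpt at 20.5 and 6.76 (2.72-fold) and Postn at 2.56 and 0.52 (4.34-fold). Of 15 partners in basement membranes, 2 were called higher in replicate 1 (13.3%) and 1 higher in replicate 2 (6.67%), below the 14.6% and 11.5% of all genes, and the median was 0.61. Agrn was at 65.7 and 65.7 TPM, perlecan (Hspg2) at 47.0 and 34.7 and the laminin chain Lama5 at 38.2 and 34.7. Nid1, which bridges laminin and type IV collagen, was 2.31-fold and Lama2 2.46-fold higher in replicate 1, while Lama3 was at 0.97 and 4.00 TPM and higher in replicate 2.

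**Figure D5:**
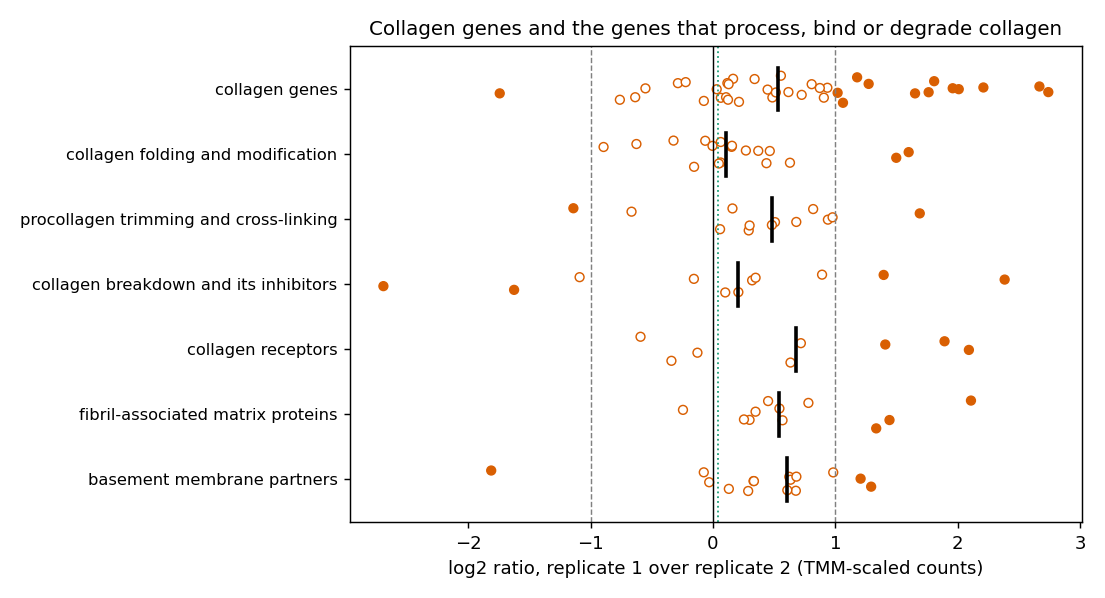
Log2 ratio of replicate 1 over replicate 2 (TMM-scaled counts) of each tested collagen gene and of the genes in 6 lists of collagen partners, 1 point a gene with vertical scatter for legibility; filled points were called, black bars are medians, the dotted line is the median of all genes and dashed lines mark 2-fold. The medians run from 0.11 for folding and modification to 0.68 for receptors, beside 0.54 for the collagen genes.

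Markers of the cell types that the tissue could hold differed between the libraries in several directions. Calls in these lists and in those of the next paragraph are to be read against all genes tested. Of those, 14.6% were called higher in replicate 1 and 11.5% higher in replicate 2. The 10 enterocyte markers, which define the absorptive epithelium, were all above 1 TPM in both libraries and summed to 12909 and 27352 TPM, with 1 called higher in replicate 1 and 6 in replicate 2. Of the cells that make collagen, the smooth muscle list of 10 genes summed to 1979 and 1329 TPM with 3 called higher in replicate 1 (Synpo2, Myh11 and Actg2), and the pericyte list to 41.8 and 23.6 with 1 of 5 tested called higher in replicate 1. The fibroblast list of 10 summed to 354 and 608 TPM, a sum that Fbln1 carried (187 and 478 TPM, called higher in replicate 2), while Pi16 and Dpt were called higher in replicate 1. The endothelial list of 10 summed to 163 and 173 TPM with 1 called higher in replicate 2, and 3 of 6 enteric glia markers were called higher in replicate 1.

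Markers of exocrine pancreas, of stomach and Brunner's gland, and of fat cells differed far more. The list of stomach and Brunner's gland does not separate the stomach from the duodenum's own glands. All 14 exocrine pancreas genes were called higher in replicate 1, with sums of 85364 and 1223 TPM, and so were all 10 genes of stomach and Brunner's gland, with 24926 and 89.9 TPM. All 6 fat cell genes were called higher in replicate 2, with 134 and 664 TPM. Cidec held 123 and 289 TPM of these sums, and the other 5 genes 10.7 and 375 TPM. The mesothelium list of 5 summed to 1093 and 1170 TPM, but Krt19, a keratin that gut epithelium also makes, held 1083 and 1160 of this. The other 4 genes summed to 10.3 and 9.89 TPM, with Msln called higher in replicate 1. Of the skeletal muscle markers, Myh1, Myh4 and Tnnt3 were at 0 in both libraries, and the list summed to 45.8 and 43.5 TPM with none of 3 tested called. The part of these cells and tissues in the differences between collagen genes was not tested. TPM was also rescaled to a common total of the annotated genes without the pancreas, stomach and Brunner's gland lists. This left out spike-ins and other rows that are not genes as well. Values rose by a factor of 1.15 in replicate 1 and 1.02 in replicate 2, and the mean summed collagen TPM was 429 in place of 392. Replicate 1 had both the higher collagen sum and the larger factor, so the summed collagen TPM of the libraries lay further apart after rescaling.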

How the data were processed

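RNA from mouse duodenum was measured in 2 libraries of 1 group. Per the text files deposited beside the tables, the genome was mm10 and the annotation GENCODE M4 (aligner and quantifier not given in the sources used here). Deposited expected counts are estimated fragments per gene or transcript, and reads that fit several were shared out, per the file headers. Deposited TPM was normalised by the authors for transcript length to a common total, and the deposited isoform percent is a transcript's share of its gene's TPM, per the file headers. Gene totals were 44272205 and 44710129 counts. Symbols, types and positions came from GENCODE M21 for 42462 of 43346 gene rows; its exon models can differ from those of M4. Spike-ins, phiX (0.215% and 0.247% of counts) and 26248 numbered rows, all at 0, were left out.

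Expected counts were rounded and scaled by TMM in edgeR 4.0.16 (R 4.3.3). The exact binomial test was run in Python 3.11.15 with scipy 1.17.1 and statsmodels 0.14.6. Its code was checked on simulated counts that held counting noise only, as the test assumes, so the check says nothing about spread between samples. Intervals are exact 95% Clopper-Pearson intervals, and a count of 0 allows up to 3 counts; both cover counting error only. Members and lists were chosen with earlier results of these data known. All members are named; those with a mean TPM of at least 1 have both values printed, and of each list the 3 highest genes and the called ones. Alternatives were DESeq2 1.42.0 size factors, ERCC and plain totals, other filters and fold limits, posterior means, and, chosen after seeing the data, long isoforms alone, TPM ratios and a minimum of 10 counts in each library. Junction and contig lists in mm9 were not used here.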

Additional observations from a re-analysis of the deposited data

How the results depend on the processing

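Of the results above, the count of members called depended most on the test and the fold limit. The 12 members higher in replicate 1 were 0 by the edgeR exact test with the spread between libraries and 27 with no fold limit; the 1 higher in replicate 2 was 0 by that edgeR test, 0 with at least 10 counts in each library, 3 with a fold limit of 1.5 and 6 with no fold limit. The shares of all genes rose likewise, to 24.1% and 21.2% at 1.5-fold and to 38.4% and 36.5% with no fold limit. Under DESeq2 size factors, ERCC totals, plain totals, TMM without the pancreas and stomach lists, no count filter, posterior mean counts, at least 10 counts in each library, a 1.5-fold limit, long isoforms and TPM ratios, members higher in replicate 1 numbered between 9 and 18. With ERCC or plain totals Col16a1, Col20a1, Col4a5 and Col5a2 joined the 12, and the share of all genes higher in replicate 1 was 20.1% with ERCC totals against 14.6%; scaling shifted the median of all genes from 0.04 to 0.29 (log2). With TPM ratios Col26a1 and Col27a1 left and Col16a1, Col1a2 and Col5a2 joined. Col26a1 reversed on deposited TPM (log2 ratio -0.81). Summed TPM of the other types was 155 with long isoforms alone, against 181. Leaving out 1 of the 2 libraries only returns the sum of the other, so it tests nothing. These sums ran from 339 to 445 TPM for all members and from 73.3 to 122 for fibrillar. They ran from 102 to 126 for basement membrane and from 164 to 198 for other types. No paired analysis was possible because there was 1 group. Counting noise limits members under about 10 counts, and 2 libraries leave the spread between animals unknown.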

Other observations

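Across the 15921 genes tested, the log2 ratio of replicate 1 over replicate 2 had a Spearman correlation of 0.145 with gene length and of -0.263 with mean count, across genes that are not independent replicates and share both libraries. The tested collagen genes had a median length of 4914 bases, against 2227 bases for all genes tested, and among the 38 members the correlation with mean count was -0.421. Both are descriptions of these 2 libraries.

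Some collagen genes overlap other annotated genes. Col18a1 overlaps Slc19a1 on the opposite strand over 8825 bases, and Col1a2 overlaps Gm43921 on its own strand over 1792 bases. Reads in the shared stretch on the same strand cannot be told apart by strand alone.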
